A study of Mus musculus with 12 samples.

Results

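Neurexins, neuroligins and their relatives hold both sides of a synapse together, and the Caspr proteins organise the membrane of axons. The 9 genes described here, *Nrxn2*, *Nrxn3*, *Nlgn1*, *Nlgn2*, *Nlgn3*, *Cntnap1*, *Cntnap2*, *Cntnap4* and *Lrrtm2*, were taken by symbol and Ensembl ID from the 37991 genes counted in hippocampal RNA. All 9 passed the filter on low counts, which left 16399 genes. *Cntnap2* fell by 25.7% in the libraries labelled Gadd45a-KO (95% interval of the change -34.4% to -15.9%), in which every library was below every library labelled Wildtype. This call at a false discovery rate (FDR) of 1% was lost in 10 of 12 fits without a single library, with an offset for transcript length, and without 2 libraries with high thalamic markers. The other 8 genes did not pass the test, and their intervals lay between -12.6% and 17.7%.

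Presynaptic neurexins bind neuroligins and leucine-rich repeat (LRRTM) proteins on the postsynaptic side, and this contact helps to specify and maintain synapses. Different partners favour different synapses: neuroligin-1 is known for excitatory and neuroligin-2 for inhibitory contacts. Caspr proteins share domains with neurexins but mostly act along the axon, where Caspr (*Cntnap1*) forms the paranodal junction beside the node of Ranvier and Caspr2 (*Cntnap2*) clusters potassium channels next to it.

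The study asked which mRNAs depend on Gadd45α, a stress-response protein that binds RNA, after an aversive training. Hippocampi came from 6 mice labelled Wildtype and 6 labelled Gadd45a-KO (genotype Gadd45a-/-), siblings from matings of heterozygotes in C57BL/6N, aged 6 to 7 months by the labels, and all 12 had been trained in passive avoidance (PA) and were killed 1 h later. Per the study's methods a neomycin resistance cassette takes the place of the first 3 exons of *Gadd45a*. The deletion is constitutive, so that every cell type lacks these exons, and there were no untrained animals among these libraries. Poly(A) RNA was counted per gene, with 44594261 to 55540601 reads on genes per library, and values are given as CPM, which are reads scaled to the library size and the TMM factors of edgeR. A gene was called where its adjusted p was under 1%. SE stands for the standard error of a log2 fold change.

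Reads over the whole *Gadd45a* gene went against the labels. They ranged from 2.19 to 3.43 CPM in the libraries labelled Wildtype and from 20.5 to 23.1 CPM in those labelled Gadd45a-KO (log2 fold change 3.06, SE 0.09, adjusted p = 1.33e-10, edgeR). Counts per gene do not separate the replaced exons from the remaining exon and its flanks, and the origin of these reads was not tested. Every direction below is therefore a direction between labels.

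The 7 hippocampal markers examined, among them *Prox1* of granule cells and *Wfs1* of CA1 pyramidal cells, were at 56.5 CPM or more in all 12 libraries. Their sum was 1278 to 1389 CPM in the Wildtype libraries and 1060 to 1314 CPM in the Gadd45a-KO libraries (two-sided exact permutation test, p = 0.00649), and *Zbtb20* was the marker of this list that passed. It had a log2 fold change of -0.43. The values of *Prox1* (-0.27), *Wfs1* (-0.25), *Fibcd1* (-0.25) and *Dsp* (-0.19) were below 0, and those of *Grik4* (0.15) and *Neurod6* (0.08) above 0. Gadd45a-KO replicates 2 and 3 stood apart from the rest, with 382 and 565 CPM summed over 7 thalamic markers against 143 to 196 CPM in the other 10 libraries. Replicate 3 also had 7311 CPM of oligodendrocyte markers, where the others had 2317 to 3738 CPM. None of the 34 markers of interneurons, thalamus, oligodendrocytes, astrocytes, microglia and choroid plexus passed 1% FDR in edgeR or DESeq2. At an unadjusted p under 0.05 in edgeR, 12 were higher under the Gadd45a-KO label, among them all 6 of oligodendrocytes, 4 of thalamus and 2 of astrocytes, and 0 were lower, where 4.34% of all genes tested were higher and 9.35% lower by this threshold. The sums over interneuron markers were 595 to 662 and 574 to 676 CPM, over astrocyte markers 1234 to 1563 and 1376 to 1523, over microglial markers 195 to 216 and 204 to 232, and over choroid plexus markers 37.3 to 64.4 and 30.2 to 79.3 CPM, Wildtype first. In such bulk RNA, fewer cells of a type and less RNA per cell cannot be told apart.

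*Cntnap2* (ENSMUSG00000039419) spans 2241 kb on the plus strand of chromosome 6 of NCBIM37, from 45010060 to 47251368, the longest of the 9 genes. Wildtype libraries had a lowest value of 89.4, a median of 101.6 and a highest value of 127 CPM, from 4065 to 6686 reads. Gadd45a-KO libraries had 67.3, 74.7 and 88.1 CPM, from 3063 to 4459 reads. The ranges of the labels did not overlap, and the highest Gadd45a-KO library lay close below the lowest Wildtype library. The means were 103.6 ± 13.4 and 76.9 ± 8.04 CPM (SD, n = 6 each), a log2 fold change of -0.43 (SE 0.08, 95% interval -0.61 to -0.25). Its adjusted p was 0.00657 in edgeR, by the quasi-likelihood test and the procedure of Benjamini and Hochberg over all genes tested. Permuting the labels over log2 CPM (exact, two-sided) gave p = 0.00216, the smallest that 6 against 6 libraries allow.

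*Cntnap2* was the 1 member called lower at 1% FDR in edgeR, where 2.62% of all genes tested were called lower. No member was called higher in edgeR or DESeq2, against 0.0244% of all genes in edgeR and 0.112% in DESeq2. At an unadjusted p under 0.05 in edgeR, 2 members were lower, *Cntnap2* and *Lrrtm2*, and 0 higher. By this threshold 9.35% of all genes tested were lower and 4.34% higher. Complete separation with Gadd45a-KO lower was seen for the same member and for 3.12% of all genes, and with Gadd45a-KO higher for no member and for 0.183% of all genes. The median log2 fold change was -0.01 over the 9 genes and 0.00 over all genes tested.

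**Figure D1:**
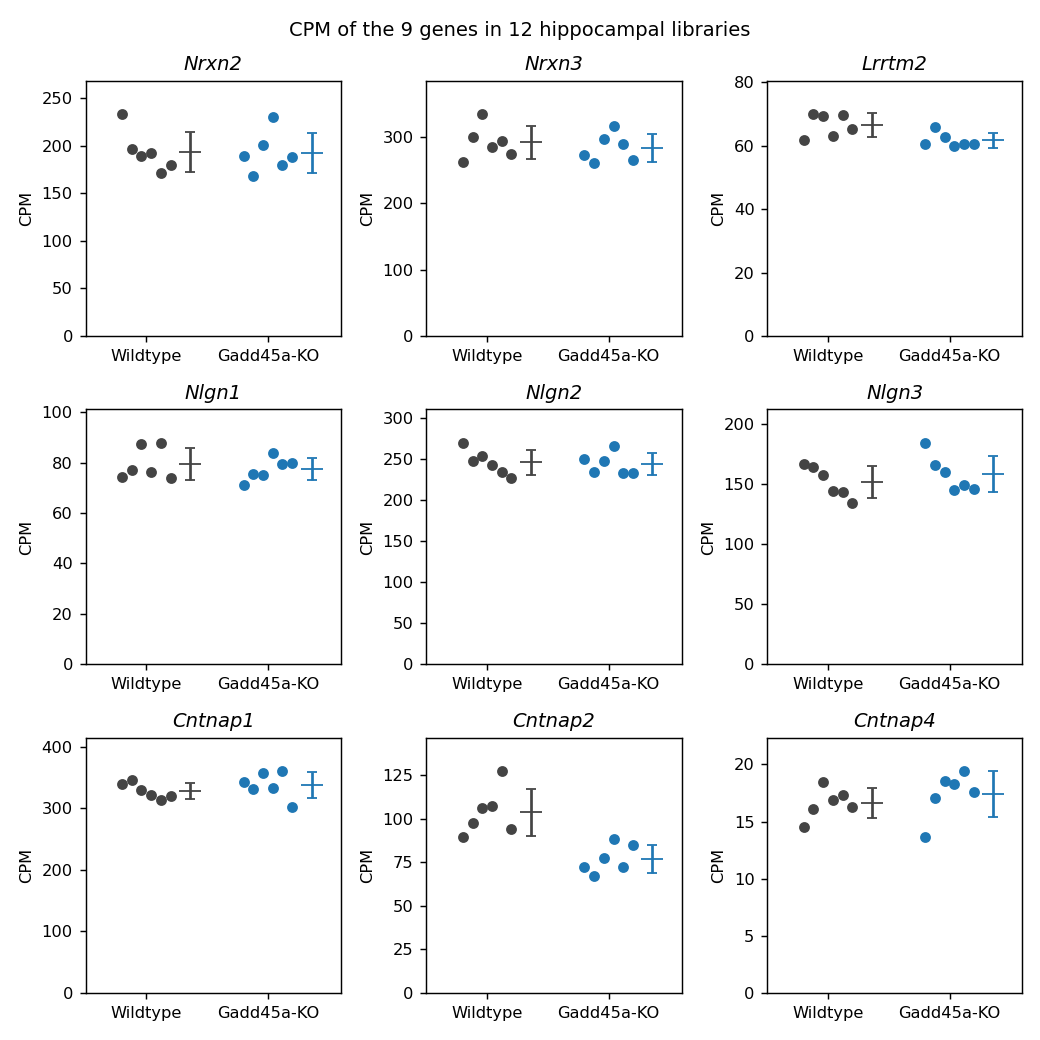
CPM of each of the 9 genes (y axis, from 0) in the 6 Wildtype (grey) and 6 Gadd45a-KO (blue) libraries, with the mean and SD to the right of the points, which stand in order of replicate number. The Gadd45a-KO points for *Cntnap2*, 67.3 to 88.1 CPM, lie under all Wildtype points, 89.4 to 127 CPM, while the points of the other 8 genes overlap.

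The call for *Cntnap2* lay near the 1% threshold and was lost in most fits with a library left out. Over all genes, 430 were called lower in edgeR with all 12 libraries, and 239 to 467 with single libraries left out. The *Cntnap2* call was kept without Wildtype replicate 1 (adjusted p = 0.00470) or Gadd45a-KO replicate 4 (adjusted p = 0.00543) in edgeR's test. It was lost in the other 10 of 12 fits, that is without Wildtype replicate 2 (adjusted p = 0.0127), 3 (0.0208), 4 (0.0179), 5 (0.0133) or 6 (0.0110), or without Gadd45a-KO replicate 1 (0.0245), 2 (0.0204), 3 (0.0157), 5 (0.0180) or 6 (0.0116). The log2 fold change in these fits stayed between -0.46 and -0.35. Without both Gadd45a-KO replicates with high thalamic markers it was -0.39 (adjusted p = 0.0391 in edgeR). With an offset for transcript length it was -0.36 (adjusted p = 0.0358 in edgeR), and with DESeq2 -0.42 (adjusted p = 8.23e-05). Under all 20 alternatives to the fold change the adjusted p was under 5%.

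**Figure D2:**
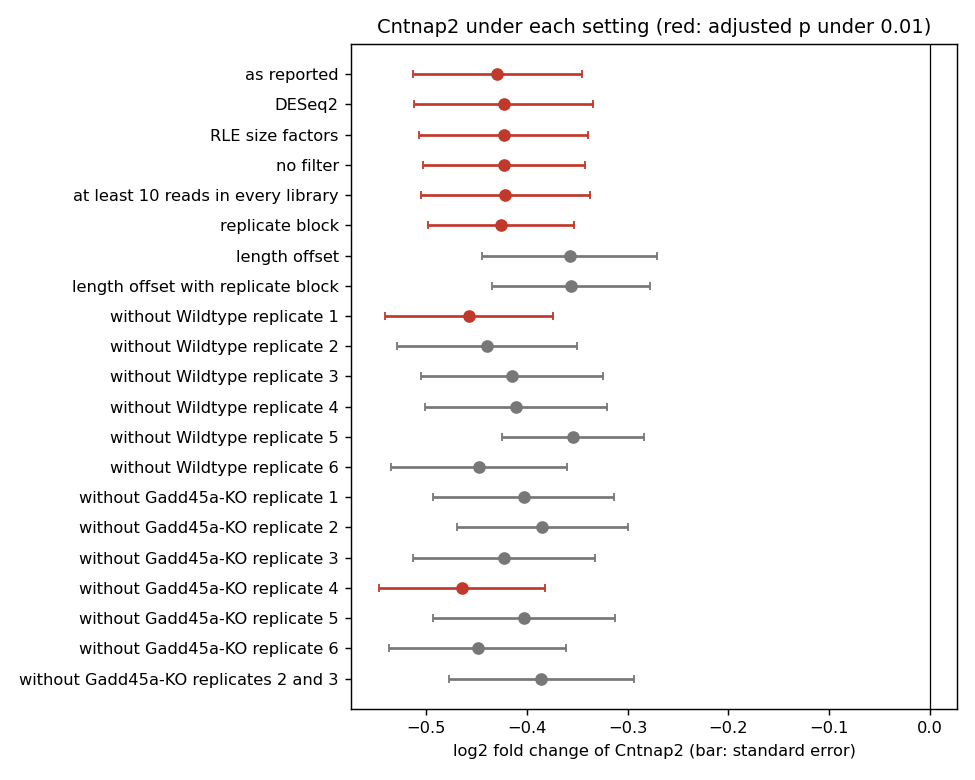
Log2 fold change of *Cntnap2* between the labels (x axis, bar: standard error) as reported and under 20 other settings (y axis), in red where the adjusted p was under 1%. All values lie between -0.46 and -0.35, left of 0, and most fits with a library left out are grey.

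Beside *Cntnap2*, the sum of hippocampal markers was lower and that of thalamic markers higher in some Gadd45a-KO libraries. Not every hippocampal marker was lower. The part of either sum in the difference of *Cntnap2* was not tested. After subtracting the label means, the log2 CPM of *Cntnap2* correlated with the log2 hippocampal sum at r = 0.21 and with the thalamic sum at r = -0.41 over 12 libraries, which share their scaling factors. Gadd45a-KO replicates 1, 4, 5 and 6, whose thalamic sums were 145 to 192 CPM, had 72.0, 88.1, 72.3 and 84.7 CPM of *Cntnap2*. Replicates 2 and 3 of this label, with thalamic sums of 382 and 565 CPM, had 67.3 and 77.1 CPM.

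*Cntnap2* lies 19.7 Mb from *Gadd45a* on the same chromosome. Of the related genes, *Lrrtm1* and *Lrrtm4*, which encode postsynaptic partners of neurexins, lie closer to it on chromosome 6, at 10.2 and 13.0 Mb. Neither passed, with log2 fold changes of -0.02 (adjusted p = 0.954) and -0.08 (adjusted p = 0.876, edgeR). A part of this position in the difference of *Cntnap2* was not tested.

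The longest annotated 3′UTR of *Cntnap2* has 2755 nt, of which 60.8% are A or T. It was searched for the pentamer ATTTA, the core of the AU-rich elements through which proteins bind mRNAs, on the transcribed strand, with overlapping matches counted. The 5 matches are shown because *Cntnap2* is the gene that differed, each with 10 bases on either side and the pentamer in capitals, as read from the plus strand of NCBIM37.
chr6:47249519-47249543: tttcttttatATTTAtaacaaaaat
chr6:47249973-47249997: cccaaaaagaATTTAatcactttat
chr6:47250027-47250051: aatggttgccATTTAtaattgtaat
chr6:47250544-47250568: caattgtagcATTTActtatgagag
chr6:47250677-47250701: attgtttccaATTTAaaaacaactt

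The longer nonamer TTATTTATT, which contains the pentamer, was not found in this 3′UTR. Of the 9 genes it was found in *Nlgn3*, once, and 7.69% of the 14172 genes tested with a 3′UTR of at least 100 nt hold it. The stretch is shown as the one such match among the 9 genes, with the nonamer in capitals.
chrX:98518525-98518553: ttttttagatTTATTTATTttattttatg

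The pentamer occurred 1.81 times per kb in *Cntnap2*, against a median of 1.24 per kb over these genes, of which 69.8% hold it at least once. *Nlgn1* (3.83 per kb), *Lrrtm2* (2.44) and *Nrxn3* (2.38) held it more densely and did not pass the expression test, *Nlgn3* (0.702) and *Nrxn2* (0.562) held it less densely, and *Nlgn2*, *Cntnap1* and *Cntnap4* held none. The Caspr relatives *Cntnap5a* (0.740 per kb) and *Cntnap5b* (0.806), which were called lower and are described below, held it less densely than the median. *Cntnap5c*, called lower too, has no 3′UTR in the annotation used and was not searched. A match is a run of letters and not a measured binding site, and a link between this density and the expression change was not tested.

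The other members of the Caspr family were measured next. *Cntnap1* (ENSMUSG00000017167), the paranodal Caspr, lies on chromosome 11 from 101031837 to 101052038 on the plus strand. Wildtype libraries ranged from 313 to 346 CPM with a median of 326, and Gadd45a-KO libraries from 302 to 361 CPM with a median of 339. The ranges overlapped, with 2 Gadd45a-KO libraries above and 1 below all Wildtype libraries. This gave a log2 fold change of 0.04 (SE 0.04, 95% interval -0.05 to 0.14, adjusted p = 0.770, edgeR). Among libraries of a label, *Cntnap1* varied with the oligodendrocyte sum at r = 0.58 and with the microglial sum at r = -0.72 (12 libraries, label means subtracted).

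*Cntnap4* (ENSMUSG00000031772), known from interneurons, lies on chromosome 8 from 115093943 to 115406617 on the plus strand and was the lowest of the 9 genes, with 662 to 1004 reads. Wildtype libraries had 14.6 to 18.4 CPM with a median of 16.6, and Gadd45a-KO libraries 13.7 to 19.4 CPM with a median of 18.0. The single lowest and the highest library both carried the Gadd45a-KO label. Its log2 fold change was 0.07 (SE 0.08, 95% interval -0.10 to 0.24, adjusted p = 0.796, edgeR).

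Within each library, the ratio of *Cntnap2* to *Cntnap1* reads needs no scaling between libraries. On the log2 scale it ranged from -1.93 to -1.30 under the Wildtype label and from -2.32 to -1.84 under the Gadd45a-KO label. The means differed by -0.47, and 4 of the 6 Gadd45a-KO libraries lay below all Wildtype libraries. These ratios are given without a test.

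*Nrxn3* (ENSMUSG00000066392), a presynaptic neurexin, spans 1612 kb of chromosome 12, from 89961320 to 91573375 on the plus strand. Wildtype libraries had 263 to 334 CPM with a median of 289, and Gadd45a-KO libraries 262 to 317 CPM with a median of 281. All but 1 of the Gadd45a-KO libraries lay within the Wildtype range. Between the labels the log2 fold change was -0.04 (SE 0.06, 95% interval -0.17 to 0.09, adjusted p = 0.860, edgeR), so that a change as large as that of *Cntnap2* lies outside its interval.

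*Nrxn2* (ENSMUSG00000033768), a second neurexin gene, lies on chromosome 19 from 6418731 to 6544169 on the plus strand. It had 171 to 233 CPM under the Wildtype label, with a median of 190, and 168 to 230 CPM under the Gadd45a-KO label, with a median of 188. A single library per label, Wildtype replicate 1 and Gadd45a-KO replicate 4, was at the upper end. Its mean level gave a log2 fold change of -0.01 (SE 0.08, 95% interval -0.17 to 0.16, adjusted p = 0.988, edgeR). Its sign changed with the scaling, and these counts do not separate the long and short neurexin transcripts or their splice inserts.

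The log2 ratio of *Nrxn3* to *Nrxn2* reads ranged from 0.18 to 0.83 in the Wildtype libraries and from 0.46 to 0.69 in the Gadd45a-KO libraries. The Gadd45a-KO ratios thus lay inside the Wildtype range.

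On the postsynaptic side, *Nlgn1* (ENSMUSG00000063887) spans 702 kb of chromosome 3, from 25330733 to 26032656 on the minus strand. Its Wildtype libraries had 73.7 to 87.8 CPM with a median of 76.6, and its Gadd45a-KO libraries 71.1 to 83.8 CPM with a median of 77.5. The lowest library carried the Gadd45a-KO label and the 2 highest the Wildtype label. This corresponds to a log2 fold change of -0.04 (SE 0.05, 95% interval -0.15 to 0.08, adjusted p = 0.864, edgeR).

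*Nlgn2* (ENSMUSG00000051790) is a compact gene of 14.7 kb on chromosome 11, from 69636624 to 69651286 on the minus strand. It had 226 to 270 CPM with a median of 246 in the Wildtype libraries and 233 to 266 CPM with a median of 240 in the Gadd45a-KO libraries. All 6 Gadd45a-KO values lay inside the Wildtype range. The fitted log2 fold change was -0.01 (SE 0.05, 95% interval -0.11 to 0.09, adjusted p = 0.954, edgeR).

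The balance between the excitatory and the inhibitory neuroligin was followed within each library. The log2 ratio of *Nlgn1* to *Nlgn2* reads had a mean of -1.63 ± 0.15 in the Wildtype libraries and -1.65 ± 0.10 in the Gadd45a-KO libraries (SD, n = 6 each), so that the difference of -0.02 was smaller than either SD.

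*Nlgn3* (ENSMUSG00000031302), found at both kinds of synapse, lies on the X chromosome from 98491178 to 98521302 on the plus strand. Its first bases overlap the end of *Med12* on the same strand, where reads cannot be given to 1 gene. Wildtype libraries had 134 to 166 CPM with a median of 151, and Gadd45a-KO libraries 145 to 184 CPM with a median of 155. One Gadd45a-KO library, replicate 1, was above all Wildtype libraries. A log2 fold change of 0.06 was fitted (SE 0.07, 95% interval -0.08 to 0.21, adjusted p = 0.773, edgeR).

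*Lrrtm2* (ENSMUSG00000071862), a postsynaptic neurexin ligand of excitatory synapses, is the smallest gene of the 9, with 6.01 kb on chromosome 18, from 35368665 to 35374678 on the minus strand. Wildtype libraries had 61.7 to 69.9 CPM with a median of 67.4, and Gadd45a-KO libraries 59.8 to 65.8 CPM with a median of 60.5. All 6 Gadd45a-KO libraries lay below the Wildtype mean and 4 below every Wildtype library, so that 2 lay inside the Wildtype range. Its log2 fold change was -0.11 (SE 0.04, 95% interval -0.20 to -0.02). It did not pass after adjustment over all genes, with p = 0.0154 before and an adjusted p = 0.194 after it in edgeR, and an exact permutation test (two-sided) gave p = 0.0260. Over the 20 alternatives its adjusted p lay between 0.0869 and 0.453. *Lrrtm2* lies within *Ctnna1*, a gene on the opposite strand with a mean of 52.0 CPM, and the authors counted by strand.

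**Figure D3:**
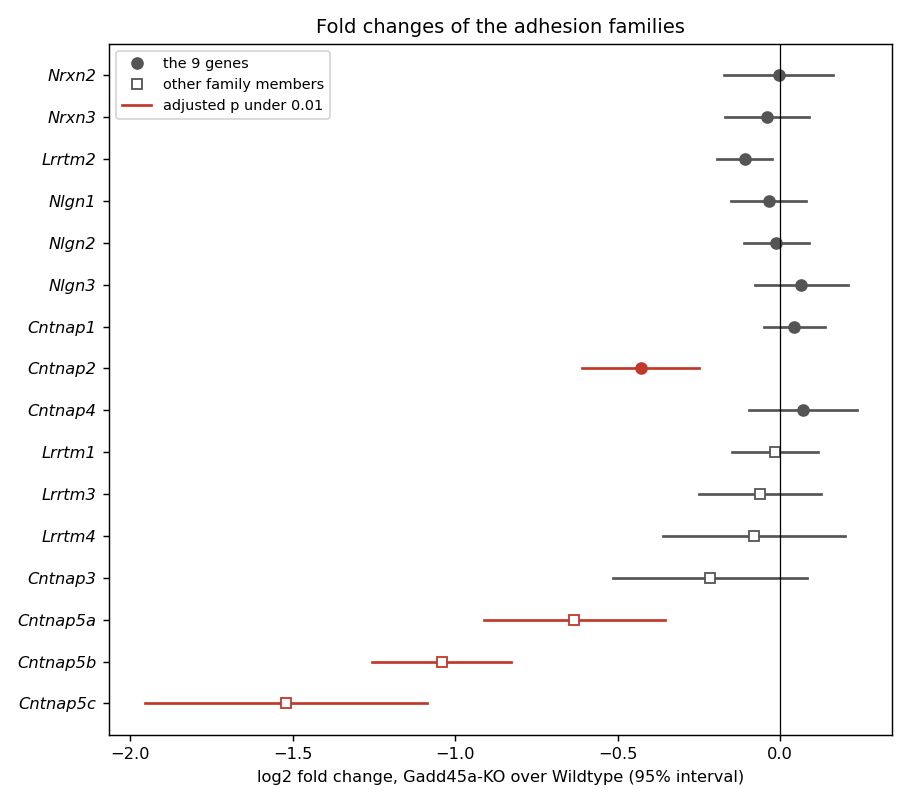
Log2 fold change between the labels with its 95% interval (x axis) for the 9 genes (filled circles) and 7 other members of the same families (open squares), in red where the adjusted p was under 1%. Among the 9 genes, *Cntnap2* stands at -0.43, with the others between -0.11 and 0.07, and the 3 *Cntnap5* genes stand at -0.63, -1.04 and -1.52.

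Levels of different genes were compared per kb of annotated exon. In the Wildtype libraries *Cntnap1* was highest with 55.9 ± 2.18 CPM per kb (SD, n = 6), followed by *Nlgn2* with 42.5 ± 2.62, *Nrxn3* with 23.1 ± 1.95 and *Nlgn1* with 18.2 ± 1.47. *Cntnap2* (14.4 ± 1.87), *Nrxn2* (14.0 ± 1.55) and *Nlgn3* (13.8 ± 1.18) followed and differed from each other by less than their SD. *Lrrtm2* had 11.7 ± 0.65 and *Cntnap4* 2.64 ± 0.21 CPM per kb. In the Gadd45a-KO libraries *Cntnap2* had 10.7 ± 1.12 and *Lrrtm2* 10.9 ± 0.40 CPM per kb, so that *Cntnap2* stood below *Nrxn2* and *Nlgn3* and within the SD of *Lrrtm2*. Divided by the longest transcript in place of all exons, *Nrxn3* reached 36.8 and *Nrxn2* 29.0 CPM per kb in the Wildtype libraries. Their annotated exons add up to 12625 and 13816 nt, and their longest transcripts have 7922 and 6667 nt.

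**Figure D4:**
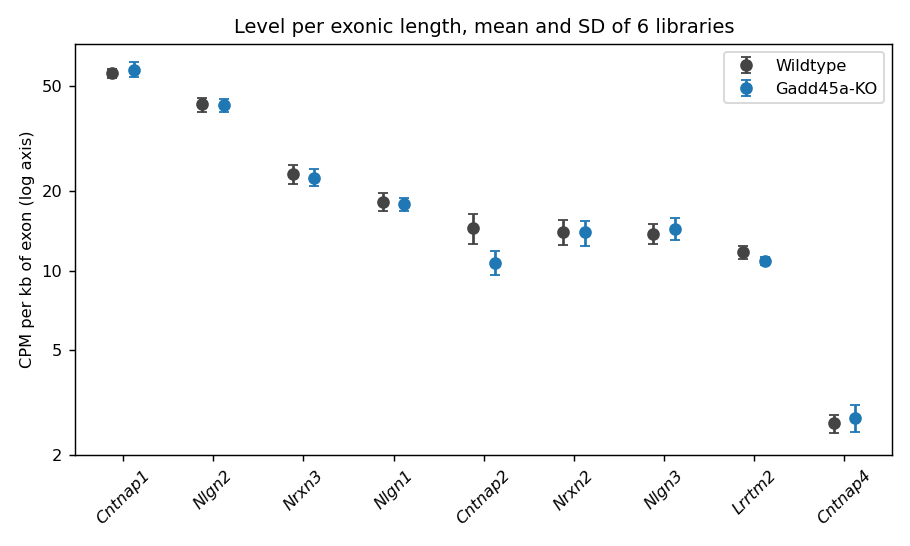
Mean level per kb of annotated exon (y axis, log scale, CPM per kb) with its SD over 6 libraries for the 9 genes in order of their Wildtype level, in grey for Wildtype and blue for Gadd45a-KO. The levels run from 55.9 for *Cntnap1* to 2.64 for *Cntnap4* in the Wildtype libraries, and the labels separate at *Cntnap2*.

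The 9 genes did not vary as a block from mouse to mouse. After subtracting the label means, pairs of members correlated over the 12 libraries between r = -0.64 (*Nlgn3* with *Cntnap4*) and r = 0.88 (*Nrxn2* with *Nlgn2*). *Cntnap2* was closest to *Nlgn1* (r = 0.76) and *Nrxn3* (r = 0.48), and had its lowest values with *Cntnap1* and *Nlgn3* (r = -0.51 each). These libraries share depth and composition, so the correlations are descriptions.

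Around the 9 genes, 43 genes of the same pathway were listed, with 5 lower and 0 higher at 1% FDR and a median log2 fold change of -0.06. The other 38 did not pass. Over all genes tested, 2.62% were lower and 0.0244% higher. At an unadjusted p under 0.05 in edgeR, 9 were lower and 1 higher, where 9.35% and 4.34% of all genes were. DESeq2 called 6 lower and 0 higher at 1% FDR, where it called 4.15% and 0.112% of all genes.

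The other members of the families numbered 8, of which 3 passed as lower and 0 as higher, against 2.62% and 0.0244% of all genes. The 3 are the *Cntnap5* group, whose proteins resemble Caspr2 and whose functions are less known. *Cntnap5c* had 12.4 to 25.8 CPM in the Wildtype libraries and 4.42 to 10.6 CPM in the Gadd45a-KO libraries, a log2 fold change of -1.52 (SE 0.20, adjusted p = 0.000425, edgeR). *Cntnap5b* had 4.73 to 6.80 against 2.51 to 3.53 CPM, a log2 fold change of -1.04 (SE 0.10, adjusted p = 2.27e-05). *Cntnap5a* had 8.16 to 13.1 against 4.86 to 7.78 CPM, a log2 fold change of -0.63 (SE 0.13, adjusted p = 0.00931). In all of them the labels did not overlap. They are close relatives in sequence, and reads with non-unique alignments were counted in a separate row and not for a gene. How many of those came from the *Cntnap5* genes was not tested.

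*Cntnap5a* lost its call in 10 of the 12 fits without a library, at adjusted p-values from edgeR of up to 0.0325, and with the length offset (0.0187), and without Gadd45a-KO replicates 2 and 3 (0.0203), while *Cntnap5b* and *Cntnap5c* kept theirs in all 12. *Lrrtm3* (-0.06), *Cntnap3* (-0.22), *Lrrtm1* and *Lrrtm4* did not pass either.

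None of the 13 extracellular partners of neurexins passed 1% FDR in edgeR. Their log2 fold changes lay between -0.34 for *Cbln1*, a secreted bridge to delta receptors that is sparse here, and 0.16 for its relative *Cbln4*. At an unadjusted p under 0.05 in edgeR, 1 was lower and 0 higher, where 9.35% of all genes were lower and 4.34% higher. *Clstn2*, a calsyntenin that binds neurexins, had a log2 fold change of -0.17 (adjusted p = 0.0287, edgeR) with all Gadd45a-KO libraries below all Wildtype libraries, and was called by DESeq2 (adjusted p = 0.00448). Of the 6 intracellular partners, among them the scaffold *Cask*, none passed in edgeR or DESeq2 (1 lower and 1 higher at an unadjusted p under 0.05 in edgeR), and log2 fold changes lay between -0.15 for *Lin7a* and 0.08 for *Apba1*. The 3 regulators of neurexin splicing of the *Khdrbs* family had log2 fold changes from -0.06 to 0.01. Of these, 0 were past an unadjusted p of 0.05 in edgeR and 0 were called by DESeq2. At 1% FDR, edgeR called 2.62% of all genes lower and 0.0244% higher, and DESeq2 4.15% and 0.112%.

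Of 6 neuroligin regulators and scaffolds, 1 passed as lower, where 2.62% of all genes tested did. *Mdga2*, which binds neuroligins and blocks their contact with neurexins, had 9.41 ± 0.76 and 6.63 ± 0.42 CPM (SD, n = 6 each), a log2 fold change of -0.51 (SE 0.06, adjusted p = 0.000293, edgeR), without overlap between the labels. Its relative *Mdga1* (0.00), the excitatory scaffold *Dlg4* (-0.02) and the inhibitory scaffold *Gphn* (0.03) did not pass.

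Among 7 axonal partners of the Caspr proteins, *Adam22*, which sits with Caspr2 beside the node, passed with 236.6 ± 8.97 and 205.2 ± 6.59 CPM (SD, n = 6 each), a log2 fold change of -0.20 (SE 0.03, adjusted p = 0.00215, edgeR). With the offset for transcript length its log2 fold change was -0.09 (adjusted p = 0.248), and without Gadd45a-KO replicates 2 and 3 it was -0.19 (adjusted p = 0.0180). It also lost the call without each of 2 single libraries, at an adjusted p of up to 0.0106 in edgeR. *Kcna2*, a potassium channel of the same axonal domain, had a log2 fold change of -1.02 that did not pass 1% FDR (adjusted p = 0.0494 in edgeR). *Cntn2*, the direct partner of Caspr2 on the axon and on myelin, had 0.21 (adjusted p = 0.503), and its Gadd45a-KO values spread over 36.7 CPM (SD) against 8.13 CPM under the Wildtype label. *Cntn1* (-0.07), *Nfasc* (0.10), *Epb41l3* (0.12) and *Kcna1* (0.00) did not pass. Thus 1 of the 7 was called lower in edgeR, where 2.62% of all genes tested were.

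**Figure D5:**
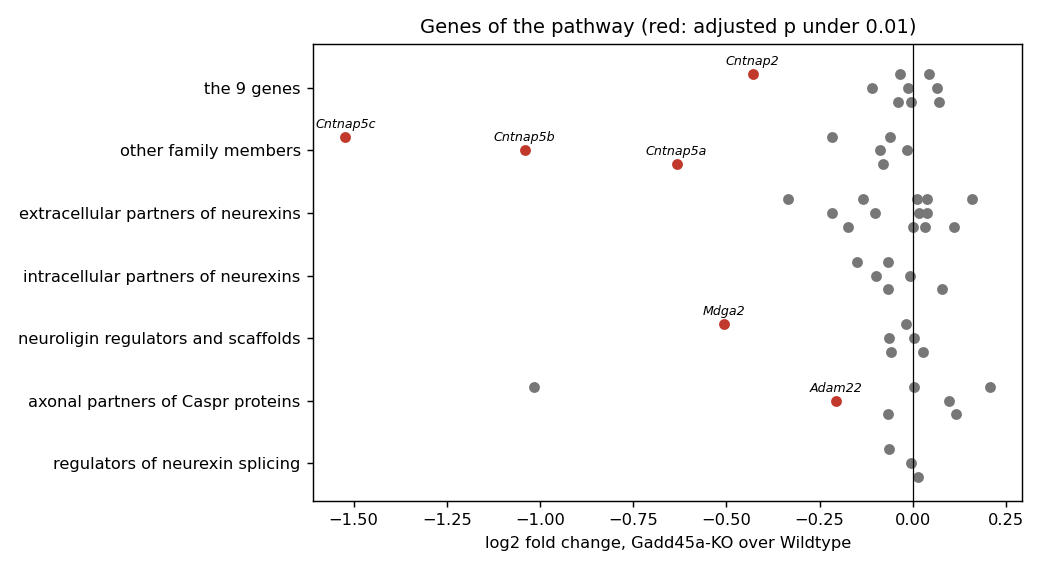
Log2 fold change between the labels (x axis) of every gene of the 9 and of the 6 lists of related genes (rows), in red where the adjusted p was under 1%. Red points are *Cntnap2*, 3 *Cntnap5* genes from -1.52 to -0.63, *Mdga2* at -0.51 and *Adam22* at -0.20, and the other points lie between -0.34 and 0.21 except *Kcna2* at -1.02.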

How the data were processed

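The authors sequenced poly(A) RNA of 12 hippocampi (TruSeq stranded libraries), aligned the reads with TopHat 1.4.1 to NCBIM37/mm9 and counted them per Ensembl gene with HTSeq 0.5.4p3, strand taken into account. They deposited whole read counts without normalization. Rows for reads without a gene, ambiguous reads and non-unique alignments were left out.

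Groups and replicate numbers came from the sample labels. Gene models came from an Ensembl 65 annotation of the same build, which matched 37205 of 37991 gene IDs, while the authors used a later release. Where 1 symbol had several IDs (*Cbln1*, *Magi2*, *Mdga2*), the one with most reads was used. Genes kept by filterByExpr were compared across all genes with edgeR 4.0.16 (R 4.3.3), TMM, its quasi-likelihood test without covariates and Benjamini-Hochberg adjustment at 1% FDR. Standard errors were taken as |log2 fold change| divided by the square root of F. Log2 CPM used a prior count of 2. Exact permutation tests ran in Python 3.11.15. DESeq2 1.42.0, other filters and scalings, the replicate number as a block, length offsets (splines with 5 degrees of freedom) and single libraries left out were alternatives. The procedures were tested on simulated data. The 9 genes and the lists were chosen with earlier results of these data known. All 9 genes are named, with pathway genes that passed 1% FDR the extremes of each list, and the 3 genes that varied most like each of the 3 most variable members. Others were named after their values were seen. The values of 1 listed gene are not reported here.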

Additional observations from a re-analysis of the deposited data

Results flagged for a closer look

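For none of the 9 genes did a single library lie far from the other 5 of its label by Dixon's criterion at the 95% level, in 18 groups of 6 examined.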

How the results depend on the processing

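The count of members lower at 1% FDR was 1, and 0 with the length offset, with or without the replicate block, and without Gadd45a-KO replicates 2 and 3, an alternative chosen after seeing the data. It was 0 to 1 with each library left out. Fewer libraries were used in the latter fits, and for the length offset the cause was not tested. The log2 fold change of *Cntnap2* was -0.36 with the length offset and -0.36 with the offset and the block, -0.39 without replicates 2 and 3, and -0.46 to -0.35 with single libraries left out. No member was higher at 1% FDR under any of 21 alternatives. The 5 lower pathway genes became 3 with the length offset and 3 without replicates 2 and 3, and 3 to 5 with single libraries left out (3 without Wildtype replicate 5 or Gadd45a-KO replicate 6). None was higher in edgeR or DESeq2.

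Signs of fold changes near 0 turned. For *Nrxn2* the log2 fold change was 0.00019 with DESeq2, 0.00029 with RLE size factors, 0.0013 without a filter, 0.0018 with at least 10 reads in every library, 0.055 with the length offset, 0.058 with the offset and block, 0.025 without replicates 2 and 3, and -0.054 to 0.065 with single libraries left out. *Nrxn3* had 0.046 with the length offset, 0.047 with the block added, and -0.067 to 0.010 with single libraries left out. *Nlgn2* had 0.026 with the length offset, 0.028 with the block added, and -0.031 to 0.026 with single libraries left out. *Nlgn1* ranged from -0.052 to 0.0039 in those fits.

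Deviations of same-numbered libraries correlated at r over 0.1 in 5 of 6 pairs, with a mean r of 0.14 against -0.03 for different numbers. Of the 6, 1 correlated best with its own number, so the number was not taken as a pairing, and the block stayed an alternative. With the replicate block, *Cntnap2* had a log2 fold change of -0.43 (adjusted p = 0.00664 in edgeR), 6 pathway genes were lower, *Kcna2* among them (adjusted p = 0.00443), and no call of a member changed. Over all genes, 430 were lower at 1% FDR in edgeR, 667 in DESeq2, 509 with the replicate block and 251 with the length offset. The count was 278 with offset and block, 199 without replicates 2 and 3, and 239 to 467 with single libraries left out.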

Other observations

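The 3 members that varied most within the labels were *Cntnap2*, *Nrxn2* and *Cntnap4*, with SDs of 0.17, 0.15 and 0.15 on the log2 CPM scale. *Nrxn2* varied most like *Atp13a2* (r = 0.99), a lysosomal transporter gene, *Sipa1* (r = 0.98) and *Scaf1* (r = 0.98) over the 12 libraries with the label means subtracted. The log2 fold changes of these genes were 0.00, 0.09 and -0.02, and none passed 1% FDR in edgeR's test. *Cntnap2* varied most like *Gm3739* (r = 0.93), *Gm11818* (r = 0.93) and *Podn* (r = 0.90), none of which passed either, and *Gm3739* had 0.55 CPM on average in the Wildtype libraries. *Cntnap4* varied most like *E2f7* (r = 0.97), *E430025E21Rik* (r = 0.93) and *Gm15989* (r = 0.93). *E2f7* and *Gm15989* had 0.19 and 0.29 CPM on average in the Wildtype libraries. The libraries share depth and scaling, and these genes were the closest among all genes tested.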
